A study of Mus musculus with 12 samples.

Results

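The genes described here belong to bone morphogenetic protein (BMP) and SMAD signalling: the receptor gene Bmpr1a, the 6 SMAD genes Smad1, Smad3, Smad4, Smad5, Smad6 and Smad7, and the target genes Id1, Id2 and Id3. They were chosen by name, and those present in both of the authors' deposited comparison tables were kept, which left 7 of the 10: Bmpr1a, Smad1, Smad3, Smad4, Smad6, Smad7 and Id2. Each table holds 6429 genes. Smad5, Id1 and Id3 were in neither table, so they have counting windows but no Pol II value here.

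RNA polymerase II (Pol II) was measured by chromatin immunoprecipitation and sequencing (ChIP-seq) in epithelium of adult mouse duodenum. The study compared wild-type (WT) villus with WT crypt, and WT villus with villus of mice labelled as double knockouts (DKO) of Hnf4a and Hnf4g, with 3 Pol II libraries in each group, and listed 3 input libraries besides, 1 for each group. DKO mice received tamoxifen at 50 mg per kg per day for 2 days and were killed 1 day after the last injection, and both WT groups came from mice given the oil vehicle without tamoxifen. Mutant tissue was in EDTA for 25 minutes and WT tissue for 35, and a 70 µm filter then held back villi and passed crypts. Genotype, tamoxifen and EDTA time changed together between WT and DKO, so they cannot be told apart. The driver of recombination, the deleted part of each gene, the strain and the number of mice behind each library are not given in the sources used here, so the p-values measure the spread between libraries, which may be in part technical.

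BMP ligands bind pairs of receptor kinases, of which BMPR1A is a type I receptor. The activated receptor phosphorylates SMAD1, SMAD5 and SMAD9, while TGF-beta and activin receptors act on SMAD2 and SMAD3, and both kinds of SMAD join the common partner SMAD4 to bind DNA. SMAD6 and SMAD7 inhibit the pathway and are themselves switched on by it, and so are the Id genes, whose proteins lack a DNA-binding region and hold E proteins away from DNA. In the small intestine, antagonists made below the crypts keep BMP signalling low around the stem cells, and signalling is stronger toward the villus, where it favours differentiation. HNF4 and SMAD4 have been described as working together at enterocyte genes.

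The promoters of 4 of the genes whose Pol II signal changed are shown first, since their signals moved in different directions. The RefSeq table (GRCm38.p6) had an entry for 7 of the 10 genes: Bmpr1a, Smad1, Smad3, Smad5, Smad6, Id2 and Id3. Each sequence runs 5′ to 3′ on the gene's own strand and ends at the base before the annotated start, except that of Smad6, which runs to the end of a motif that crosses the start. All 4 genes lie on the minus strand. Capitals mark matches on either strand to GGCGCC, the core of a BMP-responsive element, and to GTCTAGAC, a palindrome that SMAD proteins bind. CAAAGTCCA, an HNF4 element, and CAGATG, an E-box of the kind E proteins bind, were searched too. No motif searched contains another.

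Id2, chr12:25096093-25096342, higher in villus than in crypt:
Id2: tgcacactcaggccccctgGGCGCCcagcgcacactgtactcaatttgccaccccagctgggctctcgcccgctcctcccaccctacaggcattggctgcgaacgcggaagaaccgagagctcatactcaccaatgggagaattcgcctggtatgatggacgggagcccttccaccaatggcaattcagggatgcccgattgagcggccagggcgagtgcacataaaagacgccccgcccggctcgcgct
Smad6, chr9:64022056-64022309, higher in villus than in crypt:
Smad6: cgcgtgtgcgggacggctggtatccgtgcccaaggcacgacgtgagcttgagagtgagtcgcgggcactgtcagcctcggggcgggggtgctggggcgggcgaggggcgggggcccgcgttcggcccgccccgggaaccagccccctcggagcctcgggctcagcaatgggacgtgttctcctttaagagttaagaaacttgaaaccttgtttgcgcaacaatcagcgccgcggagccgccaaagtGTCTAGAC
Bmpr1a, chr14:34502547-34502796, lower in WT villus than in either other group:
Bmpr1a: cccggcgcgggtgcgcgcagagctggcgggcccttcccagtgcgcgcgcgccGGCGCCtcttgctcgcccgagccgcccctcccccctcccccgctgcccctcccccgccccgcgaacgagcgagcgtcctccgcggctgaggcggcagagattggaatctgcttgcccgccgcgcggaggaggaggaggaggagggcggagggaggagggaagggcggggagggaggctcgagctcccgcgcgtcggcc
Smad1, chr8:79399429-79399678, highest in labelled-DKO villus:
Smad1: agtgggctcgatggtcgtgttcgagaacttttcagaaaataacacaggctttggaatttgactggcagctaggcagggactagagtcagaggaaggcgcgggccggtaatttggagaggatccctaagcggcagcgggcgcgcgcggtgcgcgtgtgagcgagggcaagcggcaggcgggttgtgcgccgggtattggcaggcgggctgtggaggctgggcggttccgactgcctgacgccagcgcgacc

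Id2 and Bmpr1a each had 1 GGCGCC, beginning 231 and 198 bases before the start, although Id2 rose and Bmpr1a fell from crypt to villus. Smad5, which has no Pol II value here, had GGCGCC too. It began 19 bases before the start in 1 Smad5 entry and at base 24 from the start in another, and a further Smad5 entry had none. This core stood in 11.9% of all 32851 promoters of the table and in 20.1% of the promoters of genes in the comparison tables. Smad6 had the palindrome GTCTAGAC, beginning 4 bases before the start and running past it. That palindrome was in 0.213% of all promoters. CAAAGTCCA and CAGATG were in none of the 9 entries, which belong to 7 of these genes. They were in 0.475% and 17.2% of all promoters, and in 0.668% and 11.1% of the promoters of genes in the comparison tables. A match describes letters and says nothing of binding, and a missing match says only that the letters are not in the 300-base entry. The share of G and C in the bases before the start was 62.8% for Id2, 63.6% for Smad1, 66.8% for Smad6 and 78.8% for Bmpr1a, against a median of 52.4% over all promoters.

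The Pol II values come from the authors' deposited DESeq2 tables. Their mean signal is the mean over libraries of counts divided by size factors, and it ran from 13.1 to 6634 over all genes with a median of 144. Values per library could not be read, because the count files do not name their columns, and the depth of each library is not analysed here. Group means were therefore rebuilt from the deposited mean and the 2 fold changes, for groups of equal size, and carry no error of their own. The rebuilding assumes that the deposited mean covers the 3 Pol II groups and nothing else, which the sources used here do not state. The largest difference of a gene's mean signal between the 2 tables was 0. Standard errors (SE) of log2 fold changes follow ±. A gene was called at an adjusted p under 0.05.

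The tissue labels were read against markers in the authors' deposited tables. All 11 enterocyte genes found there, of 12 listed, were higher in WT villus than in crypt (log2 fold changes of 0.93 to 2.11), and all 11 exceeded their level in labelled-DKO villus (0.49 to 3.87). All 5 stem and dividing cell genes found, of 12, were higher in crypt, and 3 of them, Pcna, Ccnd1 and Myc, also passed between genotypes, with more signal in labelled-DKO villus (median WT over labelled-DKO change of the 5, -0.62). None of 12 mesenchyme or 12 endothelium markers was in the tables, and of 12 immune markers 2 were, of which Cd74 was called higher in WT villus in both. Of 8 secretory genes found, 5 were called between villus and crypt and 2 between genotypes. In the same deposited tables, Pol II signal at the targeted genes was higher in the libraries labelled DKO, with WT over labelled-DKO changes of -0.54 ± 0.14 for Hnf4a and -1.45 ± 0.22 for Hnf4g (DESeq2 adjusted p of 4.84e-04 and 7.81e-10 there). Without the deleted part this is no check of the deletion, and every direction between genotypes below rests on the labels. In bulk tissue, a different share of cells and a different signal per cell cannot be told apart.

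Between WT villus and WT crypt, 5 of the 7 genes were called, 3 higher in villus and 2 higher in crypt. Over all genes 37.4% were called, 18.6% higher in villus and 18.8% higher in crypt. The 7 genes have mostly high signal, from the 57.7th percentile of all genes at Id2 to the 95.7th at Smad3. Among the 4393 genes with a mean signal of at least 100, which include all 7, 47% were called, 23.8% higher in villus and 23.2% higher in crypt. The genes that rose in villus were both inhibitory SMADs and Id2, which are feedback regulators and a target of the pathway. The genes that fell in villus were the receptor gene Bmpr1a and the signal-transducing Smad1. The median log2 fold change of the 7 genes was 0.03, against -0.04 over all genes, because the 2 directions offset each other. Smad3 and Smad4 did not pass the test. After centring on the median of all genes 4 of the 7 were called, 3 higher in villus and 1 higher in crypt, without Smad1.

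Between WT villus and labelled-DKO villus, 3 of the 7 genes were called, against 51.9% of all genes. Smad7 was higher in WT villus, a direction called for 22.4% of all genes. Bmpr1a and Smad1 were higher in labelled-DKO villus, called for 29.5% of all genes. The median of the 7 genes was -0.07, and that of all genes was -0.08. Smad3, Smad4, Smad6 and Id2 did not pass. Bmpr1a and Smad1 were higher in crypt and in labelled-DKO villus than in WT villus, as were Pcna, Ccnd1 and Myc. The other stem and dividing cell genes found were not called between genotypes. Axin2 had the same sign there (-0.38 ± 0.17, DESeq2 adjusted p of 0.0531) and Sox9 the opposite sign (0.26 ± 0.19, DESeq2 adjusted p of 0.251). Smad7 lay on the same side as the 11 enterocyte markers in both tables. In labelled-DKO villus over crypt, the difference of the 2 deposited changes, it did not. There the 11 markers had a median of -0.80, with 3 called lower and 1, Fabp1, called higher. Smad7 had 0.36 ± 0.16 and was not called. The part of cell makeup in these values was not tested. The comparisons of WT villus with crypt and with labelled-DKO villus use the same WT villus libraries. Their values therefore stand side by side here and are not counted as separate evidence.

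**Figure D1:**
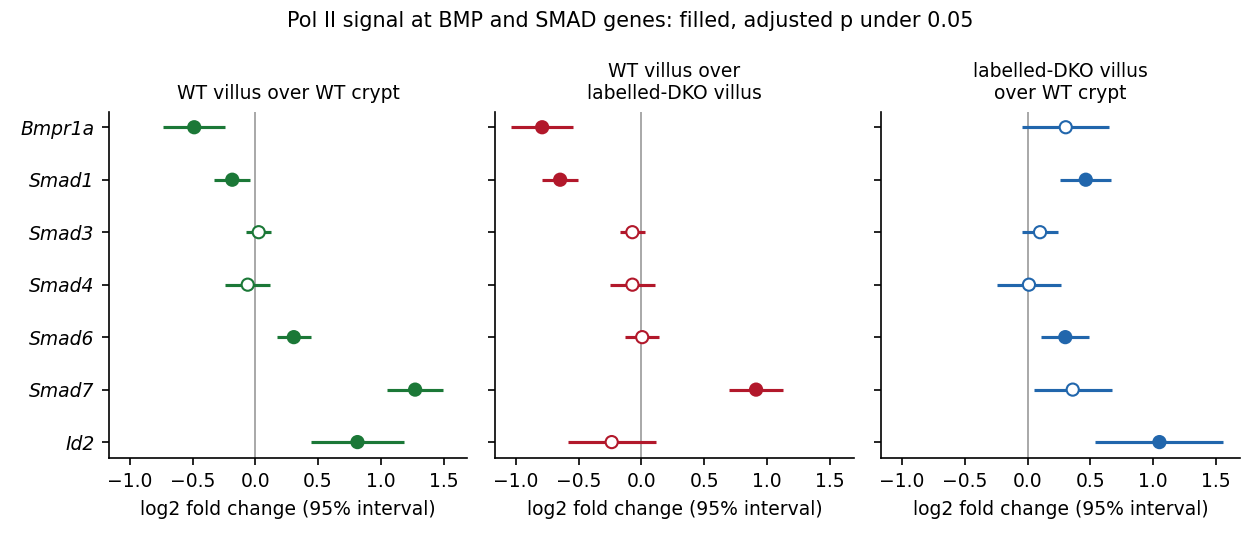
Log2 fold change of Pol II signal (x axis) at each of the 7 genes (rows) in 3 comparisons, with 95% intervals; filled points had an adjusted p under 0.05. Smad7 lies right of 0 and Bmpr1a and Smad1 lie left of 0 in the first 2 panels, while Smad3 and Smad4 have intervals that include 0 in every panel.

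Bmpr1a encodes the type I receptor through which epithelial cells receive BMP signals. Its rebuilt mean Pol II signal was 631 normalised counts in WT crypt, 450 in WT villus and 779 in labelled-DKO villus. WT villus was the lowest of the 3 groups. The authors' deposited tables gave a villus over crypt log2 fold change of -0.49 ± 0.13 (DESeq2 adjusted p of 6.19e-04) and a WT over labelled-DKO change of -0.79 ± 0.13 (DESeq2 adjusted p of 2.57e-09). The signal was thus 1.40-fold higher in crypt and 1.73-fold higher in labelled-DKO villus than in WT villus, with 95% intervals on the log2 scale of -0.73 to -0.24 and -1.04 to -0.55. Labelled-DKO villus was not told apart from crypt, at 0.30 ± 0.18 with an adjusted p of 0.289, where this comparison is the difference of the 2 deposited changes and its SE is the largest possible. With an SE rebuilt from the group means the adjusted p was 0.0492. Of all genes, 446 had a lower villus over crypt change than Bmpr1a and 300 had a lower WT over labelled-DKO change.

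Smad1 encodes a SMAD that BMP receptors phosphorylate directly. Its rebuilt signal was 460 normalised counts in WT crypt, 405 in WT villus and 634 in labelled-DKO villus, so labelled-DKO villus stood highest. The authors' deposited change for WT over labelled-DKO villus was -0.65 ± 0.07, a 1.57-fold higher signal in labelled-DKO villus (DESeq2 adjusted p of 4.41e-18). Between villus and crypt the authors' deposited change was smaller, at -0.18 ± 0.07 with a DESeq2 adjusted p of 0.0358, and it did not pass after centring on the median of all genes (-0.14, adjusted p 0.122). Labelled-DKO villus was also higher than crypt, at 0.46 ± 0.10 with an adjusted p of 1.65e-04. Smad5, which encodes the closely related SMAD of the same branch, had windows but no row in either table, so it cannot be set beside Smad1.

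Smad3 transmits TGF-beta and activin signals and was the gene with the highest mean signal of the 7, at 709 normalised counts. The rebuilt means were 688 in WT crypt, 702 in WT villus and 738 in labelled-DKO villus. The groups lay close together, and this was the most precise of the 7 estimates. The authors' deposited changes were 0.03 ± 0.05 for villus over crypt (DESeq2 adjusted p of 0.714) and -0.07 ± 0.05 for WT over labelled-DKO villus (DESeq2 adjusted p of 0.221). The 95% interval of the villus to crypt ratio was 0.951 to 1.09 and that of the WT to labelled-DKO ratio 0.889 to 1.02.

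Smad4 encodes the partner shared by both branches. Its rebuilt signal was 471 normalised counts in WT crypt, 452 in WT villus and 475 in labelled-DKO villus, the narrowest span of the 7 genes. The authors' deposited changes were -0.06 ± 0.09 (DESeq2 adjusted p of 0.651) and -0.07 ± 0.09 (DESeq2 adjusted p of 0.531). The 95% intervals of the ratios were 0.846 to 1.09 for villus to crypt and 0.840 to 1.08 for WT to labelled-DKO villus. Neither test shows that the groups are equal.

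Smad7 encodes an inhibitory SMAD that acts on both the BMP and the TGF-beta branch. Its rebuilt signal was 321 normalised counts in WT crypt, 777 in WT villus and 413 in labelled-DKO villus. WT villus stood well above both other groups. The authors' deposited tables gave a villus over crypt log2 fold change of 1.27 ± 0.11, a 2.42-fold higher signal (DESeq2 adjusted p of 2.41e-27), and a WT over labelled-DKO change of 0.91 ± 0.11, a 1.88-fold higher signal (DESeq2 adjusted p of 3.38e-15). These were the largest changes of the 7 genes in each table. Of all genes, 115 had a higher villus over crypt change and 490 a higher WT over labelled-DKO change. Labelled-DKO villus was not told apart from crypt with the largest possible SE (0.36 ± 0.16, adjusted p 0.118), and it was higher than crypt with the SE rebuilt from the group means (adjusted p 0.00791).

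Smad6 encodes the other inhibitory SMAD, which acts mainly on the BMP branch. Its group means were 405 normalised counts in WT crypt, 502 in WT villus and 499 in labelled-DKO villus. Both villus groups were above crypt and nearly level with each other. The authors' deposited change for villus over crypt was 0.31 ± 0.07, a 1.24-fold higher signal (DESeq2 adjusted p of 8.45e-05). For WT over labelled-DKO villus it was 0.01 ± 0.07 (DESeq2 adjusted p of 0.948), with a 95% interval of the ratio of 0.915 to 1.10. Labelled-DKO villus was higher than crypt by 0.30 ± 0.10 with an adjusted p of 0.0206. The inhibitory SMADs thus had non-overlapping 95% intervals for villus over crypt, 1.05 to 1.49 for Smad7 and 0.17 to 0.44 for Smad6, and also between genotypes, 0.70 to 1.13 for Smad7 and -0.13 to 0.14 for Smad6.

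Id2 encodes an inhibitor of DNA binding that pairs with E proteins. It had the lowest mean signal of the 7 genes, 170 normalised counts, and the largest standard errors. The rebuilt means were 105 in WT crypt, 185 in WT villus and 218 in labelled-DKO villus, so both villus groups were above crypt. The authors' deposited change for villus over crypt was 0.81 ± 0.19, a 1.76-fold higher signal (DESeq2 adjusted p of 1.13e-04). For WT over labelled-DKO villus it was -0.24 ± 0.18 (DESeq2 adjusted p of 0.265), and its interval of -0.59 to 0.11 holds ratios of WT to labelled-DKO villus from 0.665 to 1.08. Labelled-DKO villus was 2.07-fold higher than crypt, at 1.05 ± 0.26 with an adjusted p of 0.00103.

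**Figure D2:**
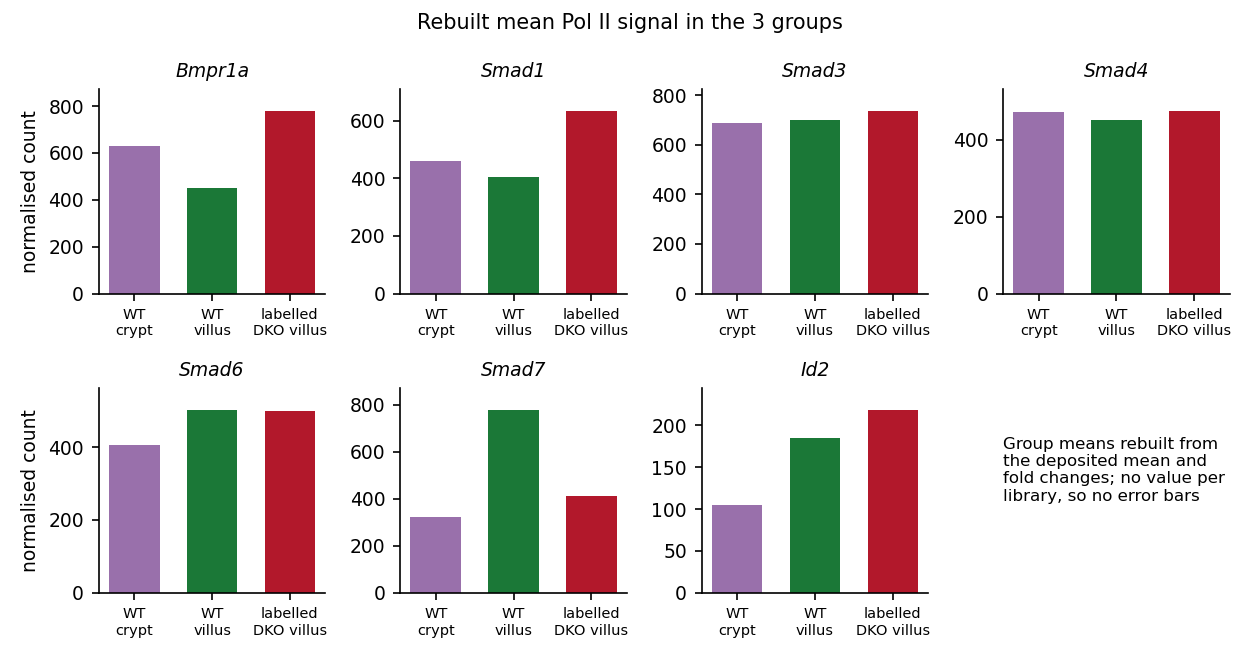
Bars give the mean Pol II signal in normalised counts (y axis from 0, its own scale for each gene) in WT crypt, WT villus and labelled-DKO villus, rebuilt from the deposited tables, with no error bars because no value per library was available. Smad7 is highest in WT villus at 777, Bmpr1a and Smad1 are highest in labelled-DKO villus at 779 and 634, and Smad3 and Smad4 are nearly level.

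Set against crypt, labelled-DKO villus was called higher at 3 of the 7 genes, Smad1, Smad6 and Id2, and lower at 0. Over all genes 13.6% were called in this comparison, 6.41% higher in labelled-DKO villus and 7.19% higher in crypt. Among genes with a mean signal of at least 100 the share was 18.9%, with 9.49% and 9.42% in those directions. At an unadjusted normal p under 0.05 the counts were 4 higher and 0 lower, where 12.8% of all genes were higher and 11.9% lower. All 7 estimates were above 0, with a median of 0.30, while 50.3% of all genes were above 0 and their median was 0.00. With the SE rebuilt from the group means, 5 of the 7 genes were called, all higher in labelled-DKO villus, and 29.9% of all genes were. The order of the rebuilt means differed from gene to gene. WT villus was at the top for Smad7 and, by little, Smad6, and at the bottom for Bmpr1a, Smad1 and Smad4. Crypt was at the bottom for Smad3, Smad6, Smad7 and Id2. Smad3 and Smad4 were not called in any comparison, and Smad1 did not pass between WT villus and crypt after centring.

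**Figure D3:**
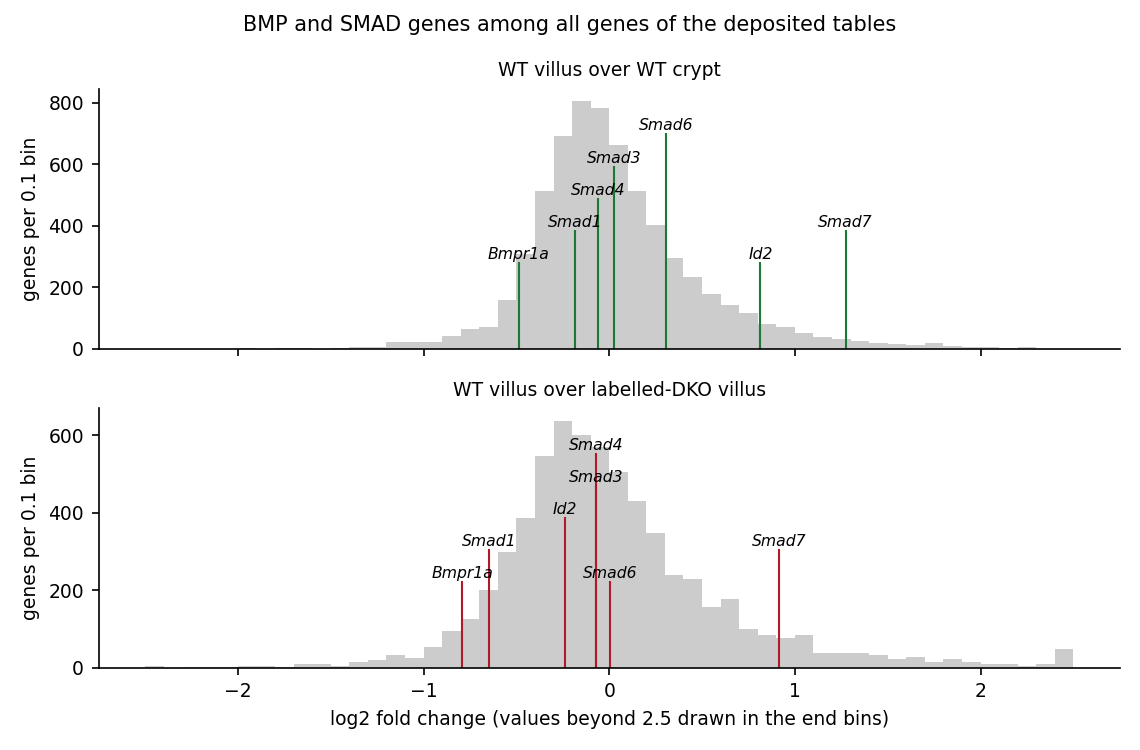
Histograms count all 6429 genes by log2 fold change (x axis, bins of 0.1), with a vertical line at each of the 7 genes; line heights only separate the labels. Smad7 lies in the right tail of both panels, at 1.27 and 0.91, and Bmpr1a toward the left, at -0.49 and -0.79.

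The genes most like Smad7, the gene with the largest change in both tables, were sought by the distance between their pairs of deposited log2 fold changes, among genes at or above the median of the mean signal. The pairs rest on 2 comparisons of 3 groups. The nearest were Arf6, Pfn1 and Zyx, at distances of 0.05, 0.06 and 0.07. Arf6, a small GTPase gene of membrane traffic, had 1.24 ± 0.21 and 0.95 ± 0.21 in the authors' deposited tables. Pfn1, which encodes the actin-binding profilin, had 1.25 ± 0.15 and 0.96 ± 0.15. Zyx, which encodes zyxin of focal adhesions, had 1.26 ± 0.26 and 0.98 ± 0.26.

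Other genes of BMP and TGF-beta signalling were read from a list of 86, of which 26 were in the tables. Between villus and crypt 10 of the 26 were called, 4 higher in villus and 6 higher in crypt, and their median was -0.01 against -0.04 over all genes. Of the same 26 genes 15 were called between genotypes, 4 toward WT and 11 toward labelled-DKO villus, beside 22.4% and 29.5% of all genes in those directions, and the median was -0.11 against -0.08. After centring on the median of all genes 12 were called, 5 toward WT and 7 toward labelled-DKO villus, and over all genes the shares became 26.6% and 22.1%. The shares called in either direction, beside 37.4% and 51.9% of all genes, do not set the list apart. The tables held none of the 9 extracellular antagonists listed and neither Smad2 nor Smad9, and the authors' gene filter is not stated.

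Among ligands, Bmp8a was higher in WT villus than in crypt (0.49 ± 0.13) and higher than in labelled-DKO villus (0.67 ± 0.13) in the authors' deposited tables. Bmp2, a ligand made by villus epithelium, was lower in labelled-DKO villus than in WT villus, at 0.45 ± 0.14 with a DESeq2 adjusted p of 0.00426, and had 0.28 ± 0.15 over crypt with a DESeq2 adjusted p of 0.119. Both of the ligands found thus had less Pol II signal in labelled-DKO villus. The mean signal of Bmp2 was 80.8, under the median of 144 over all genes. Limiting to genes without an overlap kept 20 of the 26 genes. Bmp2 was among them, while Bmp8a and 2 genes named below, Acvr1b and Ctdsp1, were not. What a neighbouring gene adds to the values of those left out was not tested. Among receptors and co-receptors, Rgmb, a BMP co-receptor gene, was 1.98-fold higher in crypt than in WT villus by the authors' deposited table (-0.99 ± 0.12, DESeq2 adjusted p of 6.01e-15). Between genotypes Rgmb was higher in labelled-DKO villus than in WT villus, at -0.39 ± 0.12 with a DESeq2 adjusted p of 0.00311. It was called lower in labelled-DKO villus than in crypt, at -0.60 ± 0.17. In that comparison 3 of the 26 genes were called, Rgmb lower and Cdkn1a and Klf10 higher, beside 13.6% of all genes, and with the SE rebuilt from the group means 8 were, 5 higher and 3 lower, beside 29.9%. Acvr1b, an activin receptor gene, rose in labelled-DKO villus (-0.46 ± 0.10), and Acvrl1, a type I receptor gene, fell there (0.52 ± 0.18), by the WT over labelled-DKO changes in the authors' deposited table. Endothelial cells are the best known site of Acvrl1, and its part in that value was not tested. None of the 12 endothelium markers listed was in the tables.

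Of 14 intracellular regulators found, 5 were called between villus and crypt and 7 between genotypes, where 37.4% and 51.9% of all genes were. Skil, which encodes a repressor of SMAD complexes and is itself a TGF-beta target, was higher in WT villus than in crypt (0.29 ± 0.10) and than in labelled-DKO villus (0.57 ± 0.10) in the authors' deposited tables. Tgif1, a co-repressor gene, went the other way, with -0.45 ± 0.10 and -0.53 ± 0.09. Ctdsp1, which encodes a phosphatase that acts on SMADs and on the Pol II tail, had 0.83 ± 0.20 for villus over crypt. Tab2, an adaptor gene of the kinase TAK1, and Smurf2, a ubiquitin ligase gene of the pathway, were higher in crypt, at -0.39 ± 0.09 and -0.34 ± 0.11, and Tab2 was at -0.40 ± 0.09 for WT over labelled-DKO villus, so lower in WT.

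Among partners and targets, Cdkn1a, the gene of the cell cycle inhibitor p21, was 2.43-fold higher in villus than in crypt (1.28 ± 0.23) in the authors' deposited table, and had 0.06 ± 0.23 between the genotypes. Its rebuilt signal was 113 normalised counts in crypt, 275 in WT villus and 264 in labelled-DKO villus, so both villus groups stood above crypt. Klf10, first described as a TGF-beta inducible early gene, had the largest change of the list between genotypes: its rebuilt signal was 188 in crypt, 181 in WT villus and 554 in labelled-DKO villus, and its deposited change was -1.61 ± 0.19. Crebbp, which encodes a co-activator that binds SMADs, was lower in WT villus than in crypt and than in labelled-DKO villus. The authors' deposited changes were -0.39 ± 0.08 for villus over crypt and -0.39 ± 0.08 for WT over labelled-DKO villus.

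**Figure D4:**
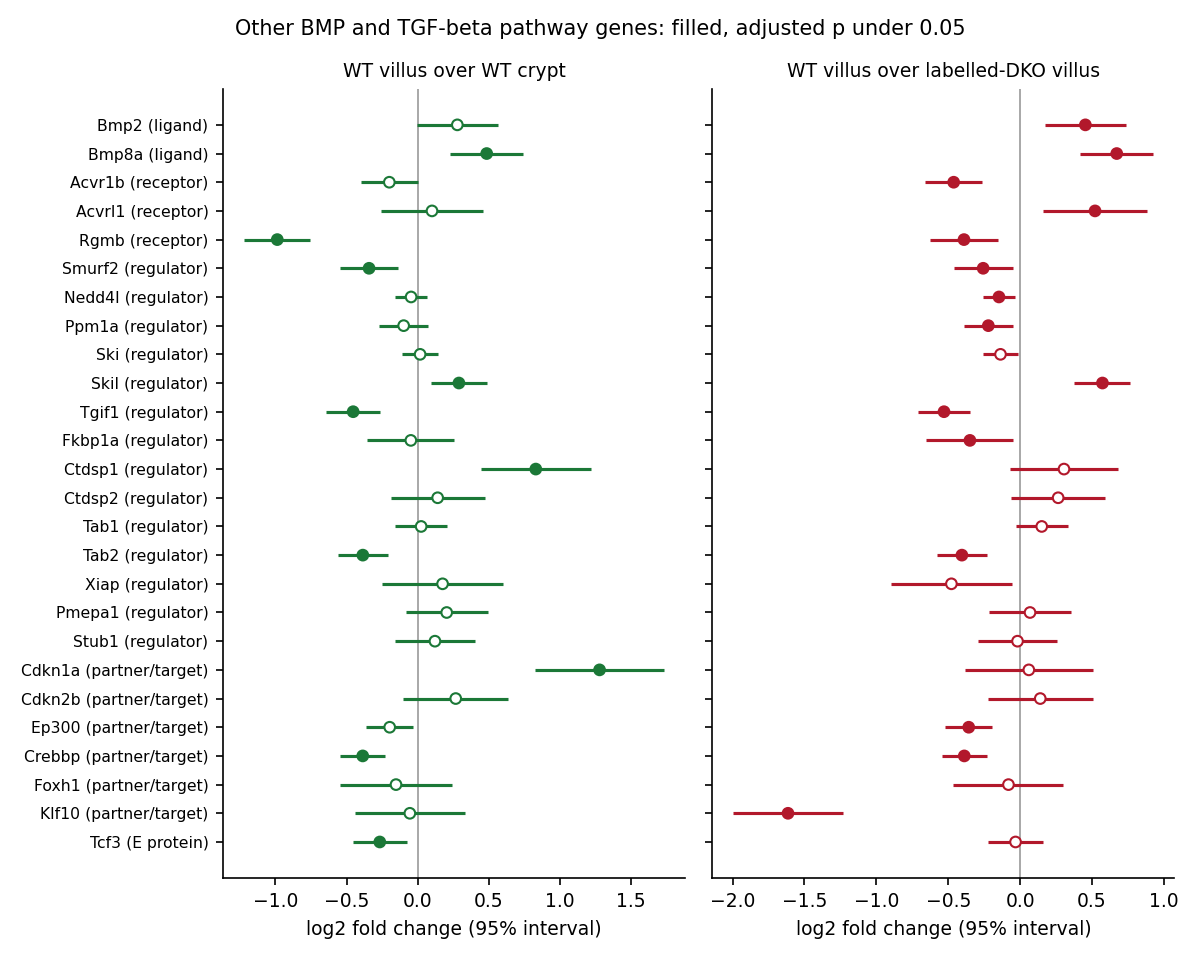
Log2 fold change with its 95% interval (x axis) for the 26 other pathway genes found in the tables, grouped by role from top to bottom, for villus over crypt and WT over labelled-DKO villus; filled points had an adjusted p under 0.05. Cdkn1a at 1.28 and Rgmb at -0.99 lie farthest from 0 on the left, and Klf10 at -1.61 on the right, with the 2 panels on different scales.

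The counting windows of these genes were compared with the rest of the 44308 promoter and 41048 gene body windows, in the files' own coordinates (mm9). Every promoter window is 402 bp, from 100 bases before the start site to 301 after it. On the plus strand all 19858 gene body windows begin 350 bases after the start site. On the minus strand all 21190 begin 350 bases before it, so they contain the whole promoter window. Of the 7 genes with values 6 lie on the minus strand and 1, Smad7, on the plus strand. If the deposited tables were counted over these gene body windows, which they do not state, signal at the start of Smad7 was left out and signal at the starts of the other 6 was counted.

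The windows differ most for the Id genes. Id2, on chromosome 12, has a promoter window from 25780656 to 25781057 and a gene body window of 3144 bp from 25778164 to 25781307. Id1, on chromosome 2, has a promoter window from 152561887 to 152562288, and Id3, on chromosome 4, one from 135699637 to 135700038, and neither has a gene body window. Of the 2657 genes with a promoter window and no gene body window, 4 were in the comparison tables (0.151%), against 6388 of the 22462 genes with both (28.4%). Smad5, on chromosome 13, has both windows and was not in the tables. The 3 genes without values are all on the plus strand. Over all genes with a gene body window, 28.9% of those on the plus strand and 28.1% of those on the minus strand were in the tables. These shares do not cover Id1 and Id3, which have no gene body window.

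The other gene body windows are long, from 27720 bp at Smad7 to 112078 bp at Smad3. Bmpr1a lies on chromosome 14 with a gene body window from 35223754 to 35316082, Smad1 on chromosome 8 from 81861796 to 81923677, and Smad3 and Smad6 on chromosome 9 from 63494074 to 63606151 and from 63800383 to 63870216. These windows overlap no window of another gene. Smad4 and Smad7, both on chromosome 18 with gene body windows from 73793945 to 73863795 and from 75527369 to 75555088, each have a noncoding neighbour on the opposite strand. The promoter window of 4930578L24Rik shares 316 bp with the gene body window of Smad4, and the gene body window of Gm20544 shares 174 bp with the promoter window of Smad7 and none with its gene body window. The counting headers record that overlaps were allowed and record no strand option. Read pairs in shared bases could therefore be counted for both genes. In the authors' deposited tables Gm20544 had 0.15 ± 0.17 for villus over crypt (DESeq2 adjusted p of 0.525) and 0.53 ± 0.17 for WT over labelled-DKO villus (DESeq2 adjusted p of 0.00570). Its mean signal was 55.5 against 504 at Smad7, and the window behind each mean is not stated. For 4930578L24Rik the authors' deposited tables gave 0.03 ± 0.21 and 0.12 ± 0.21, and neither was called.

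**Figure D5:**
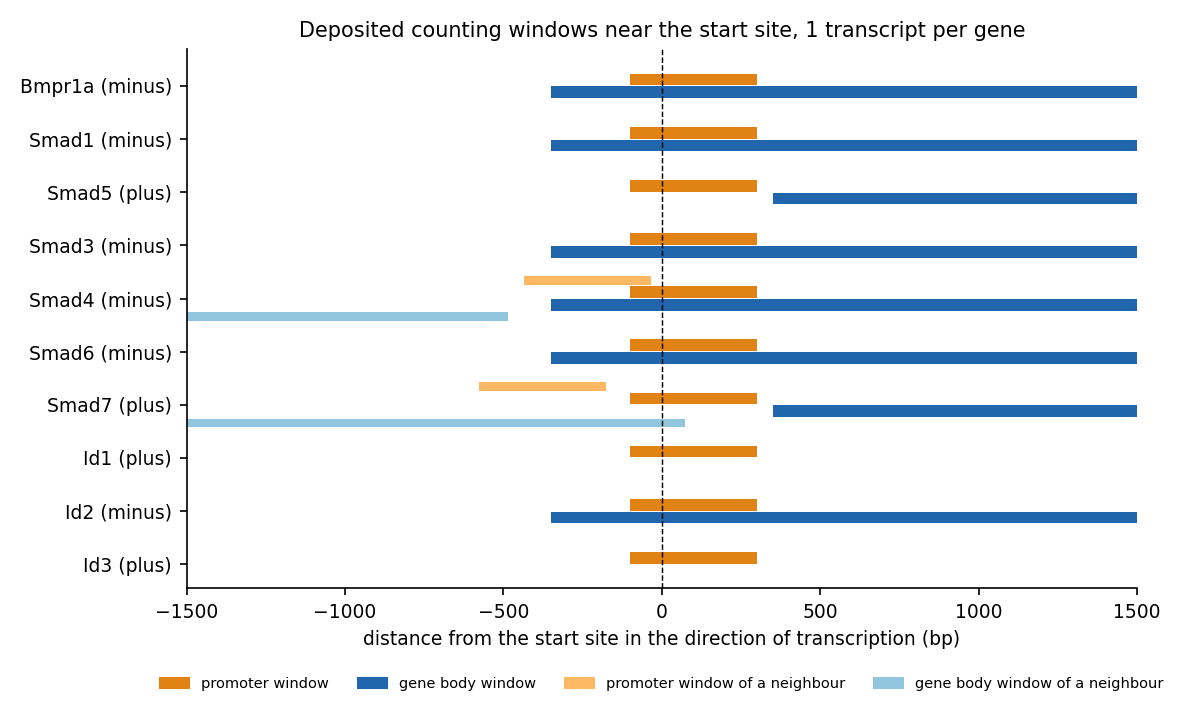
Deposited counting windows of 1 transcript of each of the 10 genes, by distance in bp from the start site in the direction of transcription; pale bars are windows of a neighbouring gene. Gene body windows start 350 bp before the start site for minus strand genes and 350 bp after it for Smad5 and Smad7, and Id1 and Id3 have none.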

How the data were processed

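The data are Pol II ChIP-seq of 3 groups with 3 libraries each, and inputs. Per the submitters' processing notes, reads were handled with Bowtie2 2.2.6, SAMtools 0.1.19, Picard, featureCounts and DESeq2 1.36.0 on mm9. The authors deposited, for each of 6429 genes, a mean signal of size-factor-normalised counts, a log2 fold change, the SE of that change, a Wald score and both raw and adjusted p-values. The deposited score equalled the log2 fold change over its SE to within 1.78e-07, and the adjusted p the Benjamini-Hochberg value over 6429 genes to within 3.76e-07. The gene filter, the window counted and the libraries in the fit are not given in the sources used here. Per the file headers, featureCounts 2.0.3 counted read pairs over windows, ignored duplicates, allowed overlaps and required mapping quality 30. The 18 count columns (9 in each file) carry no names, so they were not used, and the planned edgeR, DESeq2 and pausing tests on counts were not run.

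Signs follow the tables' names. The difference of the squared SEs was modelled from the inverses of the rebuilt group means (non-negative least squares); the model took up 90.1% of the sum of squares with the named signs, and 51.6%, 1.54% and 0 with others. Labelled-DKO villus over crypt is the difference of the deposited changes, with the root of the summed squared SEs. Its p is normal and two-sided, with Benjamini-Hochberg adjustment over 6429 genes. That comparison was also run on simulated data, with no pass limit set for it and no result given here. Intervals are 95% Wald intervals. Transcripts were matched to symbols by RefSeq accession (42872 of 44308 promoter and 40086 of 41048 gene body windows), and windows without a match were left out of the overlaps. Of the other pathway genes, those named are the called genes with the largest changes, up to 8 per comparison, and the 3 genes nearest to Smad7. The genes and lists were chosen with earlier results of these data known. Python 3.11.15, numpy 2.4.6, pandas 2.3.3 and scipy 1.17.1 were used.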

Additional observations from a re-analysis of the deposited data

How the results depend on the processing

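Of the 5 genes called between villus and crypt, 4 passed with an adjusted p under 0.01 (27% of all genes did) and 4 after centring (35.9%), without Smad1 in each case. A log2 fold change beyond 1 left 1 gene, Smad7, and 4.43% of all genes, and a test against changes up to 0.5 left 1, Smad7, and 3.92%. Of the 3 called between genotypes, 0 had a change beyond 1 (8.69% of all genes did) and 1, Smad7, passed the test against changes up to 0.5 (9.91%). Of the 3 called between labelled-DKO villus and crypt, 2, without Smad6, had an adjusted p under 0.01 (8.68% of all genes), 1, Id2, had a change beyond 1 (3.47%), 0 passed against changes up to 0.5 (1.4%), and 5 were called with the SE rebuilt from the group means (29.9%). Apart from centring, these settings ask for a smaller p or a larger change, or use a smaller SE, by construction. Centring keeps the SE and the threshold and shifts every change by the median of all genes. Limiting the tables to a mean signal of at least 100 changed none of these calls. The shares of such genes called were 47% between villus and crypt, 61.6% between genotypes and 18.9% between labelled-DKO villus and crypt. Limiting the tables to genes without an overlap removed Smad4 and Smad7 and changed no other call of the 7 genes. The shares then were 39.1%, 54.5% and 17.3% in the same order. Over all settings, 104 recomputed values of single genes kept their state, called or not called, 21 became weaker and 2 stronger. None of the called ones changed direction. Between genotypes, the uncalled changes of Smad3 and Smad4 went from -0.07 to 0.01 after centring.

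No paired analysis was possible because the values of single libraries were not matched to replicate numbers. Planned refits without each replicate, DESeq2 against edgeR, other filters on counts, other transcripts per gene and other pseudocounts were therefore not run, and how far any value rests on 1 library is unknown. For villus over crypt the SE ran from 0.05 at Smad3 to 0.19 at Id2. For the other pathway genes, 394 recomputed values kept their state, called or not called, 60 became weaker and 10 stronger.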
